A study of Homo sapiens with 4 samples.

Results

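The snoRNA host genes of U87MG cells, a human glioblastoma multiforme (GBM) line, were followed through chaetocin treatment. The genes were chosen by name: every symbol made of SNHG and a number, plus GAS5, EPB41L4A-AS1, ZFAS1, CYTOR and DANCR. In all, 33 symbols matched and 32 of them had counts among the 57905 genes listed, while SNHG4 was not analysed here. Of these 32 genes, 29 had enough reads to be tested, and SNHG22, SNHG26 and SNHG27 did not. RNA sequencing covered 4 samples of wild-type U87MG cells. In 2 control samples the cells were left untreated, and in 2 chaetocin samples they received 50 nM of the drug, dissolved in DMSO, for 24 h. Chaetocin is a fungal metabolite that inhibits histone methyltransferases and is reported to raise reactive oxygen species. The controls are not said to have received DMSO, so the drug and its solvent cannot be told apart, and the labels do not say whether the 2 samples of a group came from separate cultures. The p-values then measure only the spread between these samples. All samples are 1 cell line, which limits them as a model of GBM.

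Small nucleolar RNAs (snoRNAs) guide the chemical modification and processing of ribosomal RNA, and most human ones are cut from introns of a longer host transcript. Box C/D snoRNAs direct ribose methylation, box H/ACA snoRNAs direct pseudouridylation, and scaRNAs act in the same way on spliceosomal RNAs in Cajal bodies. Once the introns are gone, the spliced host RNA of the genes described here carries at most short reading frames. Many such RNAs are nonetheless loaded on ribosomes and then destroyed by nonsense-mediated decay (NMD), and several, GAS5 among them, begin with a terminal oligopyrimidine tract (a C followed by more C or T bases), the start that couples ribosomal protein mRNAs to growth signals. Their level is therefore known to rise when translation or NMD is blocked and to follow the growth state of the cell. The comparison of chaetocin with control reads these RNAs as a possible gauge of stress and of decay of untranslated transcripts.

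The start of a host RNA bears on that gauge. The first 20 bases are shown for the 7 tested host genes whose RefSeq transcript (GRCh38.p14) begins with a pyrimidine tract, in capitals. The tract was counted where at least 5 pyrimidines in a row began with a C within the first 3 bases.
SNHG19 (chr16:2155339-2155358, minus strand): CTTTTCggggtcgagtccga
SNHG5 (chr6:85678714-85678733, minus strand): CTTTTacgtcggccttcgcg
SNHG32 (chr6:31834916-31834935, plus strand): CTTTTTgcgaagtgggctcg
ZFAS1 (chr20:49278642-49278661, plus strand): CTTTCgcgtctgcggtgccc
SNHG12 (chr1:28581854-28581873, minus strand): CCTTTCTCCCCgccgcattc
SNHG18 (chr5:9546200-9546219, plus strand): CTCCTCCTCCTCCTCCTCCC
DANCR (chr4:52712394-52712413, plus strand): gCCCTTgcccagagtcttcc
For contrast, 4 host genes on which later values turn have another RefSeq start and are given in lower case.
GAS5 (chr1:173869026-173869045, minus strand): agatgtgtttattttggagc
SNHG3 (chr1:28505943-28505962, plus strand): gattctctaactgcgcatgc
SNHG1 (chr11:62855866-62855885, minus strand): ctcatttttctactgctcgt
SNHG31 (chr2:214810229-214810248, plus strand): aagcccctctgggctgcctg

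Of the 29 tested host genes, 25 had an entry in the RefSeq promoter table, and 7 of these 25 (28.0%) had the pyrimidine start, against 8.81% of 35116 promoters. The RefSeq start is 1 of several for most hosts. In the GENCODE v29 annotation 5.59% of 206659 transcripts of all genes began with such a tract. Among the 7 hosts, SNHG19 had it in 1 of 1, SNHG18 in 1 of 2 and ZFAS1 in 3 of 10. SNHG12 had it in 4 of 17, SNHG5 in 4 of 23, SNHG32 in 0 of 11 and DANCR in 0 of 5. Of hosts with another RefSeq start, GAS5 had 7 of 29, SNHG16 3 of 8 and SNHG8 2 of 5, but SNHG7 0 of 4. SNHG25, without an entry in the promoter table, had 2 of 2. The grouping by start thus rests on 1 RefSeq start per gene. In the 300-base window around the start (250 bases before and 50 after), the E-box CACGTG, the same on both strands, was found in SNHG7 and SNHG30 only, which is 8.0% of the 25 windows against 7.26% of all. The antioxidant response core TGACNNNGC, searched on both strands, was in the SNHG20 window alone among the 25 (4.0%) and in 13.3% of all windows. These are matches of letters and do not show that a factor binds there.

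The host RNAs were a small part of each library. Their share of all counts was 0.102% and 0.106% in control and 0.122% and 0.0906% with chaetocin, out of totals between 21241984 and 32590479 counts. Levels are given below as CPM, the counts of a gene relative to the TMM-scaled total of its library, so 3 counts correspond to 0.0921 to 0.141 CPM before that scaling. Mean control levels of the tested host genes ran from 0.406 CPM for SNHG9 to 187 CPM for SNHG29. The 5 hosts with the most reads, SNHG29, SNHG5, SNHG1, SNHG3 and ZFAS1, together held 53.8% of all host gene counts. Per kilobase of annotated exon, SNHG8 was the highest in control at 75.0 CPM per kb, ahead of SNHG5 at 51.7 and SNHG29 at 49.6. Cell identity was read from fixed markers: VIM and CD44 were abundant, SOX2 and S100B had no reads in the control samples, and GFAP had 1.02 and 0.87 CPM there. The summed level of the 9 glioma and neural markers was 5901 and 5211 CPM in control and 3434 and 2199 CPM with chaetocin, with CHI3L1 called lower, and that of 10 leukocyte markers was 0.492 and 0.592 CPM in control and 2.67 and 3.27 CPM with chaetocin, with PTPRC and ITGAM called higher (PTPRC not without control sample 1, adjusted p 0.0964) and CD3E, MS4A1 and AIF1 at 0 in every sample. The 4 epithelial markers summed to 2.66 and 2.26 CPM in control and 4.46 and 3.91 CPM with chaetocin, the endothelial ones to 0.86 and 1.29 CPM and 2.11 and 3.15 CPM, and the fibroblast ones to 1400 and 988 CPM and 907 and 488 CPM, with none called. The part of these marker shifts in the host gene values was not tested.

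**Figure D1:**
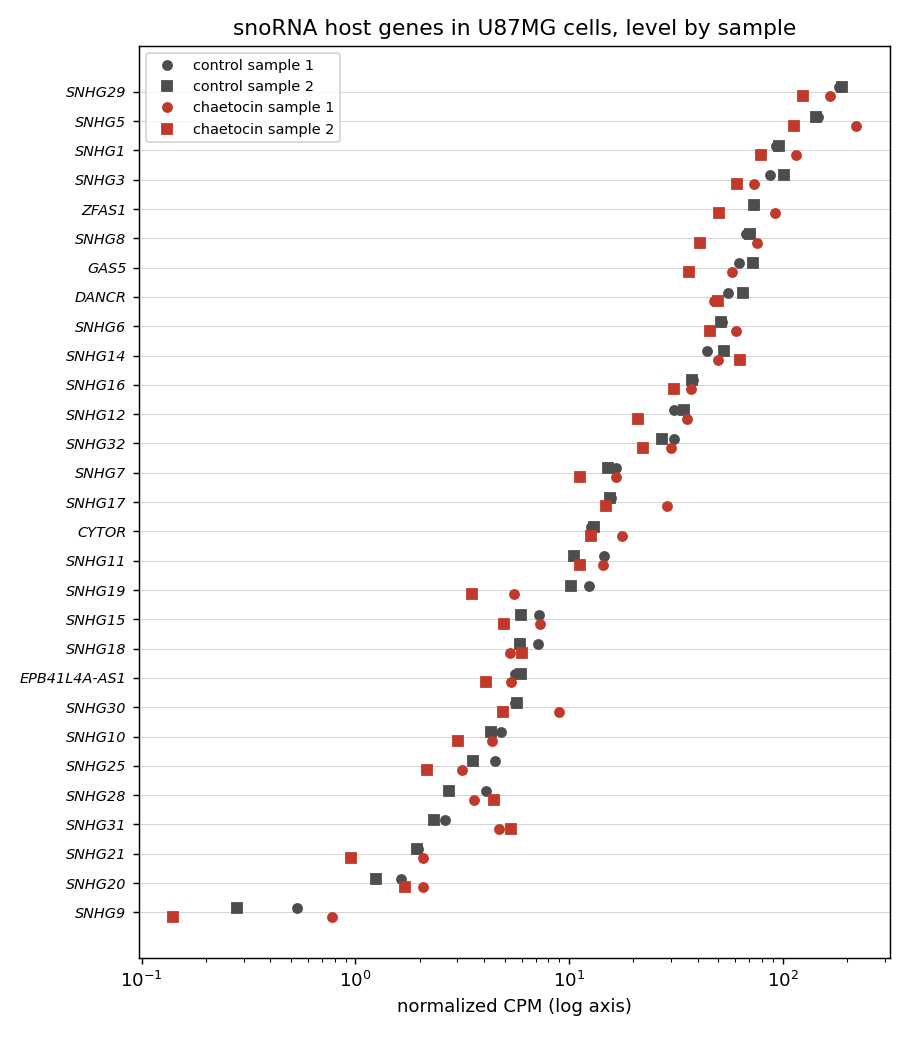
Level of each tested snoRNA host gene in the 4 samples, in normalized CPM on a log axis, ordered by the control mean. Grey marks are control samples, red marks chaetocin samples, circles sample 1 and squares sample 2, and for most hosts the red square lies left of the red circle.

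No host gene passed the test for a change with chaetocin. At an adjusted p under 0.05 (edgeR's quasi-likelihood test with Benjamini-Hochberg adjustment over all 16416 tested genes), 0 of 29 were higher and 0 of 29 were lower, where 1.11% of all tested genes were called higher and 0.743% lower (1.85% in either direction). At an unadjusted p under 0.05, SNHG31 was higher and SNHG19, SNHG3 and GAS5 were lower, which is 1 and 3 of 29, beside 10.9% and 9.43% of all genes (20.3% in either direction). DESeq2 called SNHG19 lower and no host higher, beside 2.81% and 2.72% of all genes. With no filter on low counts, SNHG31 was called higher and GAS5 and SNHG19 lower, beside 2.48% and 2.39% of all genes. The log2 fold changes ran from -1.34 to 1.02 with a median of -0.15, where the median of all tested genes was 0.01. They were above 0 in 12 hosts and below 0 in 17.

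The intervals put a bound on the size of a change in most hosts. The 95% interval of the log2 fold change lay within 1 of 0, which is a change of less than 2-fold, in 21 of 29 hosts and in 61.4% of all tested genes. Both chaetocin samples lay above both controls in 2 hosts, SNHG20 and SNHG31, and below both controls in 8, namely DANCR, EPB41L4A-AS1, GAS5, SNHG16, SNHG19, SNHG25, SNHG29 and SNHG3. These shares of 6.9% and 27.6% stand beside 26.8% and 26.0% of all tested genes, or 52.7% in either direction.

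**Figure D2:**
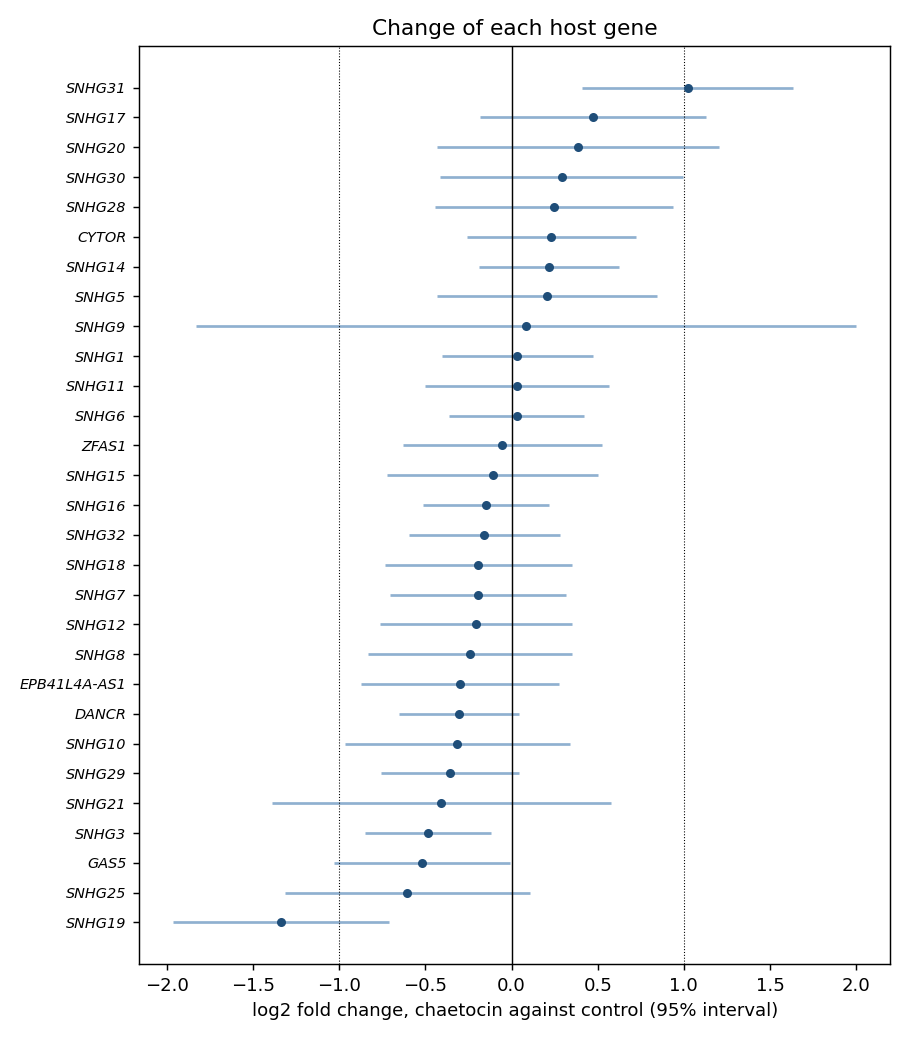
Log2 fold change of each tested host gene, chaetocin against control, with its 95% interval from the edgeR fit (2 samples per group). Dotted lines mark a 2-fold change in either direction. SNHG19 at -1.34 and SNHG31 at 1.02 lie farthest from 0, and the wide bar of SNHG9 comes with 5 to 17 reads per sample.

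SNHG19 had the most negative log2 fold change. It is a 2-exon gene of 342 exonic bases on chromosome 16 (2154797 to 2155358, minus strand, GRCh38) that hosts the box C/D snoRNA SNORD60, and its RNA begins with the tract CTTTTC shown above. The control samples had 302 and 295 counts and the chaetocin samples 120 and 125, or 12.4 and 10.3 CPM against 5.51 and 3.52 CPM. Both chaetocin values were below both control values. The mean level went from 11.3 ± 1.49 to 4.52 ± 1.41 CPM (SD, n = 2), a log2 fold change of -1.34 (SE 0.27, 95% interval -1.96 to -0.71). Its adjusted p of 0.0513 in edgeR's quasi-likelihood test missed the threshold, while 6 of the 10 alternative settings called it lower, with values between -1.68 and -1.04. Per kilobase of exon the level went from 33.1 to 13.2 CPM per kb. None of its 50-base stretches occurs in another annotated gene. Its neighbours on the opposite strand, TRAF7 and RAB26, were at -0.14 (adjusted p 0.671) and 0.26 (adjusted p 0.834) on the log2 scale in the same edgeR test.

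SNHG25 resembled SNHG19 in build and direction, but at a lower level and without passing any test. It is a 2-exon gene of 278 exonic bases with SNORD104 in its intron and, in GENCODE, the H/ACA snoRNA SNORA50C within its exonic bases, and it had 4.51 and 3.55 CPM in control against 3.17 and 2.17 CPM with chaetocin. Its log2 fold change was -0.61 (SE 0.31, edgeR adjusted p 0.319), and it lay between -0.89 and -0.35 when single samples were left out. Stretches of 50 bases that another gene record also holds made up 34.0% of it. The record RF00407 held all of these, so part of its reads could belong to that record. The first and last 25 bases of the intronic snoRNAs SNORD60 and SNORD104 are shown because the spliced host RNAs do not contain them, with the C box TGATGA and the D box CTGA in capitals (GENCODE v29, GRCh38).
SNORD60, in SNHG19, 5′ end (chr16:2155081-2155105, minus strand): agtctgTGATGAattgctttgactt
SNORD60, in SNHG19, 3′ end (chr16:2155023-2155047, minus strand): tgattatttagcaagaCTGAggctt
SNORD104, in SNHG25, 5′ end (chr17:64146083-64146107, plus strand): gctgTGATGAcattccaattaaagc
SNORD104, in SNHG25, 3′ end (chr17:64146128-64146152, plus strand): gggtgatgcgaactggagtCTGAgc

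Most snoRNAs themselves had few reads. The libraries were made from poly(A)-selected RNA, mature snoRNAs have no poly(A) tail, and the part of the selection in these counts was not tested. SNORD60 had 6 and 3 counts in control and 5 and 5 with chaetocin, too few for a comparison with SNHG19. SNORD104 had 84 and 51 counts in control and 58 and 30 with chaetocin (log2 fold change -0.61, edgeR adjusted p 0.581), and it was called lower without chaetocin sample 1 (-1.61, adjusted p 0.041). Of 144 snoRNA or scaRNA genes annotated inside hosts, 100 had counts listed, 34 had a read in any sample and 6 were tested, with 0 called. Their counts summed to 274 and 289 in control and 189 and 270 with chaetocin. Over all 18 snoRNA genes tested, none was called by edgeR or by DESeq2, and none had an unadjusted edgeR p under 0.05. Of all tested genes, edgeR called 1.85% in either direction, and 20.3% had an unadjusted edgeR p under 0.05. DESeq2 called 2.72% of them higher and 2.81% lower.

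The other abundant box C/D hosts did not share one direction. SNHG29, with the snoRNAs SNORD49A, SNORD49B and SNORD65, had 183 and 190 CPM in control and 166 and 124 CPM with chaetocin, a log2 fold change of -0.36 (SE 0.17, edgeR adjusted p 0.294). GAS5, which RefSeq gives 11 snoRNA genes and which is also known as a decoy of the glucocorticoid receptor, had 62.2 and 72.7 CPM in control and 57.9 and 36.3 CPM with chaetocin. Both hosts were lower in both chaetocin samples, and in both the second chaetocin sample was the lower one. The GAS5 log2 fold change was -0.52 (SE 0.22, edgeR adjusted p 0.24), and it was -0.89 without chaetocin sample 1 and -0.23 without chaetocin sample 2.

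SNHG5, the host of SNORD50A and SNORD50B, had 147 and 143 CPM in control, but 221 CPM in chaetocin sample 1 and 113 CPM in chaetocin sample 2. ZFAS1, the host of the SNORD12 snoRNAs, had 73.4 and 73.5 CPM in control, 91.7 CPM in chaetocin sample 1 and 50.2 CPM in chaetocin sample 2. SNHG1, which RefSeq gives 8 box C/D snoRNAs, had 92.8 and 96.4 CPM in control, 115 CPM in chaetocin sample 1 and 78.9 CPM in chaetocin sample 2. In each of these 3 hosts the controls lay close together and the treated samples lay on either side of them. Their log2 fold changes of 0.21, -0.05 and 0.03 are thus means of 2 unlike values (edgeR adjusted p 0.729, 0.933 and 0.943).

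The remaining box C/D hosts had log2 fold changes between -0.19 and 0.29. SNHG14, the long transcript of the Prader-Willi region that holds the SNORD115 and SNORD116 clusters and runs antisense to UBE3A, had 44.1 and 53.2 CPM in control and 49.6 and 63.3 CPM with chaetocin (log2 fold change 0.22, edgeR adjusted p 0.538). UBE3A was at -0.09 in the same test (adjusted p 0.79). SNHG6 was at 52.3 and 51.4 CPM in control and at 60.2 and 45.7 CPM with chaetocin. SNHG16 was at 38.0 and 37.9 CPM in control and at 37.5 and 31.1 CPM with chaetocin. SNHG32 was at 31.0 and 27.2 CPM in control and at 30.01 and 22.3 CPM with chaetocin, so its groups overlapped. SNHG18 and SNHG30 stood at 6.51 and 5.64 CPM in control on average and at 5.67 and 6.97 CPM with chaetocin. Over the 13 tested box C/D hosts the median log2 fold change was -0.15, with 5 above and 8 below 0.

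Among the 11 tested box H/ACA hosts the median log2 fold change was -0.20, with 4 above and 7 below 0. SNHG3, the host of the SNORA73 pair needed for processing of ribosomal RNA, had 87.7 and 101 CPM in control and 73.8 and 61.3 CPM with chaetocin. Both treated values were lower, and the log2 fold change was -0.49 (SE 0.16, 95% interval -0.85 to -0.12, edgeR adjusted p 0.145). SNHG3 shares 242 exonic bases with RCC1, its neighbour on the same strand, whose log2 fold change was 0.18 (adjusted p 0.538). DANCR, the host of SNORA26, had 55.4 and 64.9 CPM in control and 47.6 and 49.9 CPM with chaetocin (log2 fold change -0.31, edgeR adjusted p 0.304). In DANCR the chaetocin samples were alike, and both lay below the controls.

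SNHG31 had the highest log2 fold change and was the other host with an adjusted p under 0.1. It lies on chromosome 2 (214810229 to 214963274, plus strand, GRCh38), has 2108 exonic bases and holds SNORA70I. Its counts were 64 and 67 in control and 102 and 190 with chaetocin, or 2.62 and 2.33 CPM against 4.69 and 5.35 CPM. Both treated samples lay above both controls, with a log2 fold change of 1.02 (SE 0.27, 95% interval 0.41 to 1.63). The adjusted p of 0.0878 in edgeR's quasi-likelihood test missed the threshold, and 3 of 10 alternative settings called it higher, with values between 0.91 and 1.11. The gene spans part of ABCA12 on the opposite strand without sharing exonic bases, and starts near BARD1. ABCA12, a lipid transporter gene, went from 0.205 and 0.278 CPM to 1.15 and 1.77 CPM (log2 fold change 2.58, edgeR adjusted p 0.0514, and 0.0197 with DESeq2), and BARD1, the partner of BRCA1 in DNA repair, was at 0.45 (adjusted p 0.19). No source used here gives the strand setting of the counting, so reads of SNHG31 and of unspliced ABCA12 RNA cannot be told apart where they overlap.

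The other box H/ACA hosts had wide or divided values. SNHG17, the host of the SNORA71 snoRNAs, had 15.8 and 15.6 CPM in control, 28.9 CPM in chaetocin sample 1 and 14.9 CPM in chaetocin sample 2 (log2 fold change 0.47, edgeR adjusted p 0.396). SNHG8, with SNORA24, had 67.8 and 70.7 CPM in control, 76.3 CPM in chaetocin sample 1 and 41.2 CPM in chaetocin sample 2 (log2 fold change -0.24, edgeR adjusted p 0.648). SNHG12, which holds 3 H/ACA snoRNAs and SNORD99, had 30.9 and 34.5 CPM in control, 35.8 CPM in chaetocin sample 1 and 21.03 CPM in chaetocin sample 2 (log2 fold change -0.21, edgeR adjusted p 0.682). In all 3 the treated samples again lay on either side of the controls. EPB41L4A-AS1, SNHG7, SNHG11, SNHG15 and SNHG9 had log2 fold changes between -0.30 and 0.09, and SNHG9 had only 13 and 8 counts in control and 17 and 5 with chaetocin.

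The scaRNA hosts were low. SNHG10, SNHG20 and SNHG21, which hold SCARNA13, SCARNA16 and SCARNA15, had mean control levels of 4.55, 1.45 and 1.96 CPM and log2 fold changes of -0.31, 0.38 and -0.41 (edgeR adjusted p 0.58, 0.593 and 0.642). CYTOR, a long noncoding RNA of the cytoskeleton and of cancer cell growth in which RefSeq places no snoRNA, had 12.7 and 13.1 CPM in control and 17.7 and 12.7 CPM with chaetocin (log2 fold change 0.23, edgeR adjusted p 0.593). Its near-copy MIR4435-2HG, which holds 16.0% of its 50-base stretches, was at -0.05 on the log2 scale (adjusted p 0.929). SNHG28, in which GENCODE but not RefSeq places 1 snoRNA gene, shares 95.8% of its stretches with other gene records, nearly all with a protein-coding record that covers all its exonic bases and carries the same name, so its log2 fold change of 0.25 cannot be assigned to 1 record. The untested hosts had 0, 1, 0 and 2 counts (SNHG22), 3, 4, 4 and 4 counts (SNHG26) and 0 in all 4 samples (SNHG27), in the order control 1, control 2, chaetocin 1 and chaetocin 2.

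The chaetocin samples differed from each other in most host genes. Of the 29 tested hosts, 24 were higher in chaetocin sample 1 than in chaetocin sample 2, where 49.8% of all tested genes were, and the median log2 difference between those samples was 0.47 for hosts and -0.002 for all genes. Between the control samples 17 of 29 hosts were higher in sample 1, with a median difference of 0.02. In 11 hosts (37.9%) chaetocin sample 1 lay above both controls and chaetocin sample 2 below both, against 8.8% of all tested genes. These were SNHG1, SNHG5, SNHG6, SNHG8, SNHG9, SNHG12, SNHG15, SNHG17, SNHG21, SNHG30 and ZFAS1. The opposite order, sample 1 below and sample 2 above both controls, was seen in 0 of 29 hosts and in 7.92% of all genes.

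Set against the mean of the controls, the median host was 0.08 higher on the log2 scale in chaetocin sample 1 and 0.37 lower in chaetocin sample 2, while the median of all genes was 0.01 in both. The difference was seen in hosts of each snoRNA class: the median log2 difference between chaetocin samples 1 and 2 was 0.46 for box C/D, 0.52 for box H/ACA and 0.47 for scaRNA hosts, and 0.09 for the 2 hosts without a RefSeq snoRNA. It was 0.58 for the 7 hosts with a pyrimidine start in RefSeq and 0.44 for the 18 with another RefSeq start. It was also 0.50 in the 18 hosts at 10 CPM or more in control, so it was not limited to genes with few reads. The chaetocin samples also differed in other ways. Chaetocin sample 1 had the fewest counts (21241984) and chaetocin sample 2 the most (32590479), against 25918137 and 30351416 in control. SNORD3A, an abundant nucleolar RNA, had 163 counts in chaetocin sample 1 and 2167 in chaetocin sample 2, against 1773 and 1100 in control. The part of depth or of RNA selection in the host values was not tested.

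The choice of treated sample therefore set which hosts were called. Without chaetocin sample 1, SNHG31 was called higher and GAS5, SNHG3, SNHG8, SNHG12, SNHG19, SNHG29 and ZFAS1 lower, with 7.55% and 9.48% of all genes called higher and lower, and the median host log2 fold change was -0.38. Without chaetocin sample 2, SNHG5 and SNHG17 were called higher and SNHG19 lower, beside 4.23% and 5.59% of all genes, and the median was 0.07. Only SNHG19 was called in the same direction in both of these edgeR fits. In each of them the lone treated sample is assumed to vary like the control samples, and the larger number of calls over all genes comes with 1 treated sample in place of 2.

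Ribosomal protein mRNAs, the best-known transcripts with a pyrimidine tract, divided the chaetocin samples in the same direction. Of 84 cytosolic ribosomal protein genes tested, 80 were higher in chaetocin sample 1 than in chaetocin sample 2, with a median log2 difference of 0.49, and against the controls their median was -0.06 in sample 1 and -0.53 in sample 2. None was called in either direction by edgeR, 10 were lower and 0 higher at an unadjusted p under 0.05, and DESeq2 called 4 of them lower, beside 9.43% lower and 10.9% higher of all tested genes at that unadjusted p and 2.81% called lower by DESeq2. Their median log2 fold change was -0.24, with 77 of 84 below 0. Hosts and ribosomal protein genes thus had the same order of treated samples, and the difference between the lists was not tested.

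Protein-coding snoRNA hosts outside the ribosome differed little in median between the treated samples. Of 264 protein-coding genes with an annotated snoRNA or scaRNA inside, 224 were tested, and 28 of these were ribosomal protein genes. The other 196 had a median log2 difference of -0.002 between the chaetocin samples, with 97 higher in sample 1, and a median log2 fold change of -0.09. Among all 224, edgeR called 2 higher and 1 lower, beside 1.11% and 0.743% of all tested genes, a share near the background. PPP1R14C, an inhibitor of protein phosphatase 1, rose (log2 fold change 1.37, edgeR adjusted p 0.0354, and 0.0584 without control sample 1), ATP2B4, a plasma membrane calcium pump, fell (-0.87, adjusted p 0.0382, and 0.137 and 0.11 without either control sample) and TEX14 was called higher, with 0 counts in both controls and 14 and 28 with chaetocin. In the smaller list of 35 well-known protein-coding hosts outside the ribosome, such as EEF2, NCL and HSPA8, none was called by edgeR or DESeq2. At an unadjusted edgeR p under 0.05, 0 were higher and 1 was lower, beside 10.9% and 9.43% of all tested genes. DESeq2 called 2.72% of all tested genes higher and 2.81% lower. The median log2 fold change of the 35 was -0.13. In that list 23 of 35 were higher in chaetocin sample 1, with a median log2 difference of 0.11. The difference between these lists and the host genes was not tested.

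Few genes of the machinery that makes snoRNPs and destroys host RNAs were called, as was true of all tested genes. Among 17 core and assembly proteins of snoRNPs, such as fibrillarin (FBL) and dyskerin (DKC1), edgeR and DESeq2 called none, 0 were higher and 1 was lower at an unadjusted edgeR p under 0.05, and the median log2 fold change was -0.03. They had the same order of treated samples as the hosts, with 14 of 17 higher in chaetocin sample 1, a median log2 difference of 0.34 between the chaetocin samples, and medians of 0.13 and -0.17 against the control mean. Of 21 NMD and exon junction factors none was called by edgeR and 1 by DESeq2. At an unadjusted edgeR p under 0.05, 1 was higher and 2 were lower. Beside both lists, edgeR called 1.11% of all tested genes higher and 0.743% lower, and DESeq2 2.72% and 2.81%. At the unadjusted edgeR p, 10.9% of all tested genes were higher and 9.43% lower. UPF1, the helicase at the centre of NMD, had 108 and 103 CPM in control and 113 and 126 CPM with chaetocin (log2 fold change 0.18, edgeR adjusted p 0.535), and SMG5, an NMD factor whose own mRNA is an NMD target, had 218 and 243 CPM in control and 203 and 216 CPM with chaetocin (-0.14, adjusted p 0.662). Against the control mean, the median NMD factor was at -0.05 in chaetocin sample 1 and at 0.02 in chaetocin sample 2, and the difference from the hosts was not tested.

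Of 24 decay enzymes 1 was called, and it was higher, beside 1.11% of all tested genes called higher. DCP2, the enzyme that removes the 5′ cap before RNA is degraded, had 38.4 and 37.9 CPM in control and 74.2 and 83.0 CPM with chaetocin, a log2 fold change of 1.04 (SE 0.15, edgeR adjusted p 0.0279). Both treated samples lay far above both controls. The median of the 24 was -0.002.

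Among 8 stress mRNAs known to be held down by NMD, 2 rose and none fell. UPP1, which breaks down uridine, had 36.8 and 43.1 CPM in control and 93.4 and 75.0 CPM with chaetocin (log2 fold change 1.07, edgeR adjusted p 0.0306, and 0.0835 without control sample 1). SLC7A11, the cystine importer of the antioxidant response, had 143 and 116 CPM in control and 218 and 248 CPM with chaetocin (0.85, adjusted p 0.0496, and not called without either control sample, with adjusted p 0.0824 and 0.333, nor with RLE scaling or a minimum of 10 counts). ATF4, the transcription factor of the integrated stress response, had 175 and 162 CPM in control, 181 CPM in chaetocin sample 1 and 87.7 CPM in chaetocin sample 2 (-0.33, adjusted p 0.581), the same order of treated samples as the hosts. The 2 calls among 8 stand beside 1.11% of all genes called higher, and SLC7A11 is also a known target of the oxidative stress response.

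Of 24 other polyadenylated long noncoding RNAs tested, NORAD and FGD5-AS1 rose and none fell, beside 1.11% of all tested genes called higher, with a median log2 fold change of 0.12. NORAD, a sponge of PUMILIO proteins that is linked to DNA damage, had 416 and 437 CPM in control and 808 and 837 CPM with chaetocin (log2 fold change 0.95, edgeR adjusted p 0.0382). FGD5-AS1 had 200 and 213 CPM in control and 368 and 359 CPM with chaetocin (0.82, adjusted p 0.0417). Neither was called when 1 control sample was left out (adjusted p 0.169 and 0.193 for NORAD, 0.292 and 0.205 for FGD5-AS1). All 2043 tested long noncoding genes together had a median of 0.25, with 27 called higher and 1 lower, and their medians against the controls were 0.21 and 0.17 in the 2 chaetocin samples.

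Several hosts sit head to head with a protein-coding gene, and 28 protein-coding neighbours within 5000 bp were tested, of which edgeR called 2 higher and 1 lower, beside 1.11% and 0.743% of all tested genes. This look at neighbours was added after the host values were seen. SLC3A2, which starts 188 bp from SNHG1 and encodes the partner chain of the cystine importer, rose from 182 and 181 CPM to 390 and 455 CPM (log2 fold change 1.22, edgeR adjusted p 0.0266), while SNHG1 was at 0.03. HSPA1B, a heat shock protein 70 gene, lies 4353 bp from SNHG32 on the same strand, so not head to head. It rose by 1.84 on the log2 scale (edgeR adjusted p 0.0279), while SNHG32 was at -0.16. SEMA5A, an axon guidance gene 125 bp from SNHG18, fell from 87.8 and 79.1 CPM to 39.6 and 29.9 CPM (-1.27, adjusted p 0.0279), while SNHG18 was at -0.19. The other 25 neighbours were not called by edgeR. In none of these 3 pairs did the host pass the test, and the difference between the host and its neighbour was not tested.

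Shared sequence limits several of the host values. Among the tested hosts, 14 had over 10% of their 50-base stretches in another annotated gene, with SNHG21 at 55.2% and EPB41L4A-AS1 at 46.9%, and 15 shared exonic bases with a gene on the opposite strand. SNHG19, SNHG31, GAS5 and SNHG18 had none of their stretches elsewhere.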

How the data were processed

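Poly(A)-selected RNA of U87MG cells was sequenced on an Illumina HiSeq4000. The authors deposited raw counts per Ensembl gene, 1 table per sample, without normalization, and the submitters' processing notes name cutadapt, TopHat2 and SAMtools with GRCh37. The counter, its strand setting and the annotation release are not given in the sources used here, so overlapping genes could share or lose reads. Groups and replicate numbers came from the sample titles.

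Of 57905 gene IDs, 51996 had a symbol in the name table. Gene models came from GENCODE v29 and starts from RefSeq (both GRCh38), joined by ID or symbol only. Counts were fitted in R 4.3.3 with edgeR 4.0.16 (filterByExpr with a minimum count of 10, TMM, robust quasi-likelihood test, 2 against 2 samples, no block), with Benjamini-Hochberg adjustment over 16416 genes and a threshold of 0.05. TMM factors were 0.942 and 0.948 (control) and 1.03 and 1.09 (chaetocin), and the biological coefficient of variation was 16.8%. With 2 samples per group, only large or very even changes can pass. Single-sample log2 differences used CPM plus 0.5. DESeq2 1.42.0, the tool named in the study's methods, 2 other normalizations, 2 other filters, a replicate block and leaving out each sample were alternatives. Scripts were tested on simulated data.

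Every host was named by the rule. Of the other lists, up to 4 called genes each were named, plus UPF1, SMG5, ATF4 and MIR4435-2HG. Of the cell type markers, most are given only in summed levels. The members and lists were chosen with earlier results of these data known, so no set test was run.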

Additional observations from a re-analysis of the deposited data

How the results depend on the processing

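For the snoRNA hosts, the calls of 0 higher and 0 lower became 1 higher (SNHG31) and 2 lower (GAS5 and SNHG19) with no filter on low counts, and 0 higher and 1 lower (SNHG19) with DESeq2. With the replicate number as a block they became 1 higher (SNHG31) and 3 lower (GAS5, SNHG19 and SNHG3). Samples of one number share only that number, and the differences between samples 1 and 2 of the groups correlated across genes with r = 0.123, so this fit stands only here. Leaving out 1 sample at a time gave 0 to 2 hosts higher and 0 to 7 lower, and moved the median host log2 fold change between -0.38 and 0.072, from -0.15. RLE size factors, upper-quartile scaling and a minimum of 10 counts in every sample called none. Over all genes, 182 higher and 122 lower became 787 and 759 with no filter, 114 and 80 with the count minimum, 447 and 461 with DESeq2 and 1036 and 1053 with the replicate block. They ranged from 215 to 1332 and from 97 to 1673 when single samples were left out. In the other gene lists, 8 calls became 24 with no filter, 17 with DESeq2, 35 with the replicate block and 3 to 107 without single samples. The block raised the prior degrees of freedom from 6.29 to 41.5; otherwise the cause was not tested.

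Upper-quartile scaling moved the median of all genes to 0.08, and on that scale the log2 fold changes of ZFAS1 (0.021) and MIR4435-2HG (0.028) were above 0. The block put SNHG9 at -0.050. Leaving out single samples took these log2 fold changes across 0: CYTOR from -0.023 to 0.45, SNHG1 from -0.26 to 0.27, SNHG11 from -0.20 to 0.27, SNHG12 from -0.64 to 0.12, SNHG15 from -0.40 to 0.15, SNHG17 from -0.070 to 0.87, SNHG21 from -1.03 to 0.072, SNHG28 from -0.030 to 0.54, SNHG30 from -0.19 to 0.67, SNHG32 from -0.38 to 0.037, SNHG5 from -0.35 to 0.60, SNHG6 from -0.18 to 0.21, SNHG7 from -0.49 to 0.050, SNHG8 from -0.75 to 0.13, SNHG9 from -1.48 to 0.95, ZFAS1 from -0.55 to 0.31, ATF4 from -0.94 to 0.10, MIR4435-2HG from -0.37 to 0.22, SNORD104 from -1.61 to 0.034 and TRAF7 from -0.31 to 0.0094. Without crossing 0, SNHG29 ranged from -0.58 to -0.17, EPB41L4A-AS1 from -0.49 to -0.12, SNHG10 from -0.59 to -0.067, DANCR from -0.43 to -0.20 and SNHG14 from 0.020 to 0.38. So did SNHG16 from -0.28 to -0.026, SNHG18 from -0.34 to -0.064, SNHG3 from -0.62 to -0.37 and SNHG20 from 0.19 to 0.57. SNHG19 stayed below 0 and SNHG31 above 0 in all 10 alternatives. The 95% intervals of the hosts with the fewest reads, SNHG9, SNHG20 and SNHG21, reach beyond a 2-fold change, as do those of GAS5, SNHG17, SNHG19, SNHG25 and SNHG31.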
